A study of Mus musculus with 6 samples.

Results

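The nuclear genes for the protein subunits of respiratory complexes II, III, IV and V were followed across ventricles of control, ATF6α-cn and ATF6β-cn mice. A gene was a member when its first symbol on the array was Sdha, Sdhb, Sdhc, Sdhd or Cyc1, or began with Uqcr, Atp5, Cox4, Cox5, Cox6, Cox7 or Cox8. This gave 48 of the 21902 genes on the array, with 4 in complex II, 9 in complex III, 18 in complex IV and 17 in complex V. The rule used names only and no measured value, but the set was chosen with earlier results of these data known. It also takes in Atp5s and Atp5sl, which RefSeq now calls Dmac2l and Dmac2 and which are not subunits of the ATP synthase itself. It misses ATP synthase genes that the array lists under other names, among them Usmg5 and 2010107E04Rik (Atp5md and Atp5mpl in RefSeq) and the inhibitor Atpif1. These had log2 fold changes against control of −0.20, −0.13 and −0.20 in ATF6α-cn and −0.50, −0.43 and −0.72 in ATF6β-cn (limma adjusted p of 0.202 or more). Atp5d had a second, much dimmer cluster (a cluster is the array's unit for a gene), and the one with the highest mean signal was used.

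All mice carried the αMHC-tTA driver, a tetracycline transactivator under the cardiomyocyte-directed α-myosin heavy chain promoter. Control mice had this driver alone, with genotype αMHC-tTA, and the other groups had it with a tetracycline-dependent transgene for the constitutively nuclear form of a transcription factor of the unfolded protein response, as αMHC-tTA;ATF6α-cn or αMHC-tTA;ATF6β-cn. The mice were on a C57BL/6 background, were 8 weeks old, and had been off doxycycline chow for 4 weeks, so the transgene was on only from about weaning and under a promoter active in cardiomyocytes. There were 2 mice per group, each on its own Clariom S array, and the whole ventricle was used, so that fewer cells of a type and less RNA per cell cannot be told apart. Values are log2 signals, 1 unit being a doubling, and each probe set has its own brightness, so levels of different genes are not compared with each other.

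These complexes sit in the inner mitochondrial membrane. Complex II (succinate dehydrogenase) takes electrons from the citric acid cycle to ubiquinone, complex III passes them on to cytochrome c, and complex IV (cytochrome c oxidase) hands them to oxygen. Complexes III and IV pump protons as they do so, and complex V, the ATP synthase, lets the protons back to make ATP. All subunits of complex II are nuclear, whereas the other complexes also hold subunits made from mitochondrial DNA, which the rule does not cover. The heart depends on this chain for nearly all of its ATP, and heart muscle uses its own isoforms of several complex IV subunits.

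Nuclear respiratory genes are known for promoters with sites of the factor NRF-1 and of the ETS factor GABP, so the 250 bases before the RefSeq start (GRCm38.p6) were searched on both strands, and 37 of the 48 members had such a window. The NRF-1 letters, GCGC and TGCGC with any 1 base between them, stood in 7 of the 37 (18.9%) and in 4.23% of the windows of all 27025 genes. The ETS letters CCGGAAG stood in 9 (24.3%), against 7.83% of all genes. The letters TNAAGGTCA of the estrogen-related receptors stood in 1 member (2.7%, against 1.3%). The ER stress element through which ATF6 binds with NF-Y, CCAAT and CCACG with any 9 bases between them, stood in 0 members, against 0.13% of all genes. The windows of 3 members are shown, each 5′ to 3′ on the gene's strand with the NRF-1 and ETS letters in capitals. Sdha, at chr13:74350241-74350490 on the minus strand, has 3 NRF-1 matches and was lower on both arrays of each line than in control. Sdhd, at chr9:50603850-50604099 on the minus strand, has 1 match of each kind and was lower only on the ATF6β-cn arrays. Atp5e, at chr2:174464102-174464351 on the minus strand, has 1 ETS match and had the lowest log2 fold change of all members in ATF6α-cn. These 3 were picked by hand from the members with a match, and not every such member was lower. Uqcrh and Cox6b1 were above control on both ATF6β-cn arrays, and Atp5g2 and Cox6a1 overlapped with control in each line. The other members with NRF-1 or ETS letters were lower on both ATF6β-cn arrays, as were most members. A match of letters is a description and not a site in use.
Sdha: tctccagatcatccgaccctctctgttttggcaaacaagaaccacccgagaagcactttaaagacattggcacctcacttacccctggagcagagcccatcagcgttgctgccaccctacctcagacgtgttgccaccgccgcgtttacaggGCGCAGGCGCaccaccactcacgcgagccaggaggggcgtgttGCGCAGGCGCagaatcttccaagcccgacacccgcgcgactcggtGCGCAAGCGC
Sdhd: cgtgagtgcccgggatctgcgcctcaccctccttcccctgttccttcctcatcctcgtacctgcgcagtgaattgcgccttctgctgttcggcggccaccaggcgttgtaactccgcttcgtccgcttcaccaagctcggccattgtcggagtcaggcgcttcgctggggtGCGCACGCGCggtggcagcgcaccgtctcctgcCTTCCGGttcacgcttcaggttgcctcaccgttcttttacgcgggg
Atp5e: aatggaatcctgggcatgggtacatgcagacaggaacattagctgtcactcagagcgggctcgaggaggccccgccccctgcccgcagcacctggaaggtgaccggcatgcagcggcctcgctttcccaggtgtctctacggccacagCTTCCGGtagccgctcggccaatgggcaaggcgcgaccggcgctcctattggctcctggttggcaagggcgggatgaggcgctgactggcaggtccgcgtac

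Of the targeted genes, Atf6b was 6.12 log2 units higher in ATF6β-cn than in control (limma adjusted p = 4.7e-05), while the Atf6 signal differed from control by −0.18 in ATF6α-cn (limma adjusted p = 0.850), and no source used here says whether its probes match the transgene, so it does not check that label. The study also measured this message by qPCR, which is not analysed here. The arrays had medians of 5.58 to 5.64 on the log2 scale, and those of a group correlated at 0.990 to 0.991. All 8 cardiomyocyte markers lay above background, taken as 5.03, the 95th percentile over 1410 clusters of odorant and vomeronasal receptors. The atrial marker Myl7 lay below it, as did Adipoq, Plin1 and Ucp1 of fat, and Myh1, Myh2 and Myh4 of skeletal muscle. In the same lists 3 of 4 atrial markers, 1 of 4 fat markers and 2 of 5 skeletal muscle markers lay above it.

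No subunit gene passed the test in any comparison, but most of them had lower signals in both lines. The median log2 fold change of the 48 members in ATF6α-cn was −0.14 and in ATF6β-cn −0.21 against control, which are folds of 0.908 and 0.862, and the medians over all 22206 clusters were −0.03 and −0.02. Against control, 37 of 48 members had a fold change below 0 in ATF6α-cn, where 53.3% of all clusters did, and 41 of 48 in ATF6β-cn, where 51.9% did. Both ATF6β-cn arrays lay below both control arrays for 33 members, as for 23.3% of all clusters, and both lay above for 6 members, as for 21.1%. In ATF6α-cn both arrays lay below control for 23 members (21.6% of all clusters) and above for 4 (17.9%). The lines share the control arrays, so these counts are not independent, and 20 members were below control on all arrays of both lines.

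In ATF6α-cn 0 of the 48 members were called at an adjusted p under 0.05 from limma, where 0.0946% of all clusters were called, and 5 had an unadjusted p under 0.05, 4 lower (4.48% of all clusters) and 1 higher (4.44%). In ATF6β-cn 0 of 48 were called, against 1.1% of all clusters, 0.306% lower and 0.793% higher. Of the 48, 10 had an unadjusted p under 0.05 and a lower signal (7.14% of all clusters), and 0 a higher one (6.72%). The lowest adjusted p of any member was 0.289 in ATF6α-cn, for Atp5e, and 0.115 in ATF6β-cn, for Uqcrc2. A test with 2 arrays a group leaves wide limits: the 95% interval lay within a 2-fold change either way for 41 of the 48 members in ATF6α-cn (73.0% of all clusters) and for 39 in ATF6β-cn (68.8%), so smaller changes remain possible for these, and larger ones for the rest. In a fit that lets the variance follow the signal, with a robust prior, 6 members fell in ATF6β-cn, where 1.39% of all clusters did, and 0 in ATF6α-cn (0.00901%). They were Sdha (adjusted p = 0.0170), Uqcrc2 (0.0200), Uqcrc1 (0.0329), Sdhb (0.0404), Uqcrfs1 (0.0417) and Cox5b (0.0425), and no other fit tried called any member (lowest adjusted p 0.0658).

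In the median over the members, the ATF6α-cn arrays differed from each other more than the ATF6β-cn arrays did. Measured against the mean of the control arrays, the median over the 48 members was −0.06 on ATF6α-cn replicate 1 and −0.20 on replicate 2, with 33 and 38 members below 0. On the ATF6β-cn arrays the medians were −0.25 and −0.24, with 37 and 40 members below 0. This did not hold in complex III, with −0.16 and −0.37 on the ATF6α-cn arrays and −0.26 and −0.48 on the ATF6β-cn arrays. Without ATF6α-cn replicate 2 the ATF6α-cn median over the 48 members was therefore −0.06. Their median in ATF6β-cn moved to −0.14 after quantile normalization. The linear signal summed over the members ran from 8586470 to 8640990 in control, from 7874760 to 8434020 in ATF6α-cn and from 7664100 to 7765630 in ATF6β-cn, with no overlap between the 3 groups, and the brightest genes carry most of this sum.

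**Figure D1:**
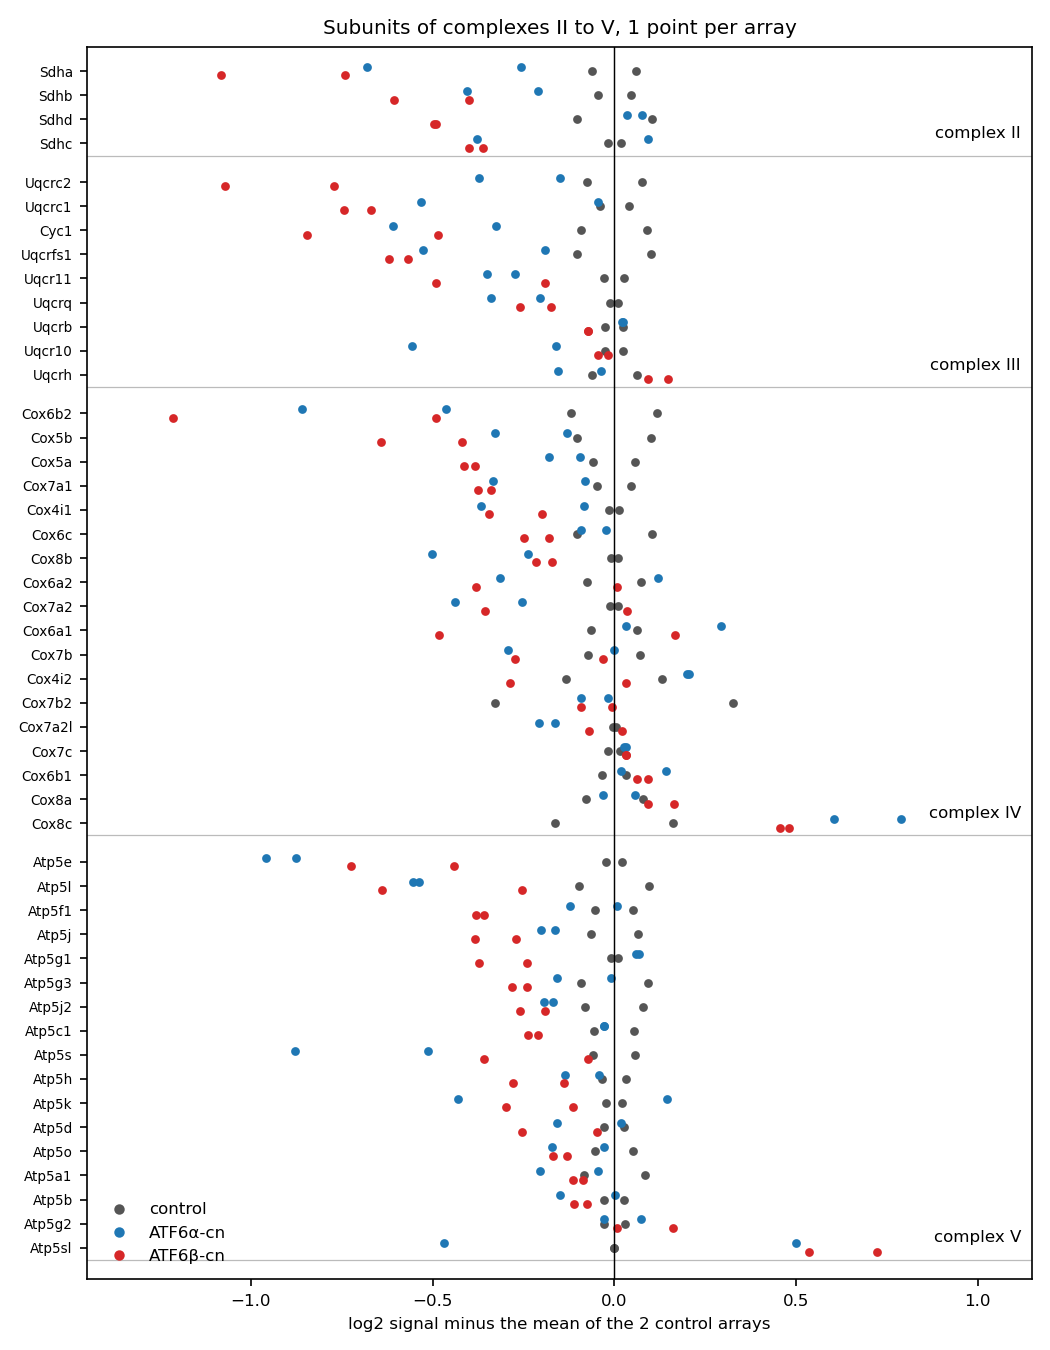
Log2 signal of each of the 48 subunit genes on each array, as the difference from the mean of the 2 control arrays (x axis, log2 units), with 1 row per gene ordered by the ATF6β-cn mean within each complex and 1 point per array. In complexes II and III most ATF6β-cn points lie left of the control points, with 4 of 4 and 7 of 9 genes below control without overlap (23.3% of all clusters), while complex IV holds genes on both sides of 0.

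Complex II had lower signals in ATF6β-cn for all of its 4 genes, with a median log2 fold change of −0.50, and each had both ATF6β-cn arrays below both control arrays (23.3% of all clusters). In ATF6α-cn the median was −0.22, and 2 of the 4, Sdha and Sdhb, had both arrays below control (21.6% of all clusters). Sdha, the flavoprotein that oxidizes succinate, had log2 signals of 14.61 and 14.49 in control, 14.29 and 13.87 in ATF6α-cn and 13.81 and 13.47 in ATF6β-cn. No array of one group reached into another, and the order was control, ATF6α-cn, ATF6β-cn. In log2 units Sdha differed from control by −0.47 in ATF6α-cn (standard error 0.24, limma adjusted p = 0.619) and by −0.91 in ATF6β-cn (standard error 0.24, 95% interval −1.47 to −0.36, limma adjusted p = 0.143).

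Sdhb, the iron-sulfur subunit that takes electrons from Sdha, had signals of 17.62 and 17.71 in control, 17.46 and 17.26 in ATF6α-cn and 17.27 and 17.06 in ATF6β-cn. Both lines lay below control, and the lines overlapped each other. Its log2 fold changes were −0.31 in ATF6α-cn and −0.50 in ATF6β-cn, with a standard error of 0.22 for each. Sdhc and Sdhd anchor the enzyme in the membrane and carry its heme. Sdhd had signals of 15.43 and 15.22 in control, 15.40 and 15.36 in ATF6α-cn and 14.84 and 14.83 in ATF6β-cn, so that ATF6α-cn lay among the control arrays and ATF6β-cn below both groups. Between the lines its log2 difference, ATF6β-cn minus ATF6α-cn, was −0.55 (standard error 0.21, limma adjusted p = 0.439). Sdhc differed from control by −0.14 in ATF6α-cn, where its arrays fell on both sides of control, and by −0.38 in ATF6β-cn. Leaving out ATF6α-cn replicate 2 moved the complex II median in ATF6α-cn to −0.07, and leaving out replicate 1 moved it to −0.39.

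Complex III followed a similar course for its large subunits, with a median log2 fold change of −0.29 in ATF6α-cn and −0.34 in ATF6β-cn over 9 genes. In each line 8 of the 9 had a fold change below 0 (53.3% of all clusters in ATF6α-cn and 51.9% in ATF6β-cn) and 7 had arrays below both control arrays (21.6% and 23.3%). Without ATF6α-cn replicate 2 the ATF6α-cn median was −0.16. Uqcrc1 and Uqcrc2 encode the core proteins that stabilize the complex on the matrix side. Uqcrc2 had log2 signals of 12.37 and 12.21 in control, 12.14 and 11.92 in ATF6α-cn and 11.22 and 11.52 in ATF6β-cn. Its ATF6β-cn arrays stood apart from the other 4, with a log2 fold change of −0.92 (standard error 0.23, 95% interval −1.44 to −0.41, limma adjusted p = 0.115), a fold of 0.528. In ATF6α-cn it was −0.26, and the difference between the lines was −0.66 (standard error 0.23, limma adjusted p = 0.369), the lowest adjusted p of any member in that comparison.

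Uqcrc1 had signals of 15.88 and 15.96 in control, 15.87 and 15.38 in ATF6α-cn and 15.25 and 15.17 in ATF6β-cn. ATF6α-cn replicate 1 lay barely below the lower control array, so only replicate 2 was clearly lower in that line, whereas both ATF6β-cn arrays were. The log2 fold change in ATF6α-cn was −0.29 and in ATF6β-cn −0.71 (standard error 0.24, limma adjusted p = 0.232). The catalytic subunits with redox groups were lower too. Cyc1, the cytochrome c1 that passes electrons to cytochrome c, had signals of 12.85 and 13.03 in control, 12.62 and 12.33 in ATF6α-cn and 12.10 and 12.46 in ATF6β-cn. Both lines lay below control and overlapped each other, with log2 fold changes of −0.47 (limma adjusted p = 0.604) and −0.66 (limma adjusted p = 0.258). Uqcrfs1, the Rieske iron-sulfur protein, had signals of 16.27 and 16.47 in control, 16.18 and 15.84 in ATF6α-cn and 15.80 and 15.75 in ATF6β-cn. Its log2 fold changes were −0.36 and −0.60 (limma adjusted p = 0.671 and 0.288).

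The small subunits of complex III did not all follow. Uqcr10 had signals of 14.33 and 14.28 in control, 14.15 and 13.75 in ATF6α-cn and 14.29 and 14.26 in ATF6β-cn, which put ATF6α-cn below control (log2 fold change −0.36) and ATF6β-cn near it, with replicate 2 just below both control arrays (−0.03). Uqcr11 and Uqcrq were lower on all arrays of both lines, with log2 fold changes of −0.31 and −0.27 in ATF6α-cn and −0.34 and −0.22 in ATF6β-cn. Uqcrh, the acidic hinge protein, was higher on both ATF6β-cn arrays than in control (log2 fold change 0.12, 95% interval −0.35 to 0.59). Uqcrb lay between 19.79 and 19.89 on all 6 arrays, within 1 log2 unit of the highest signal the arrays gave.

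**Figure D2:**
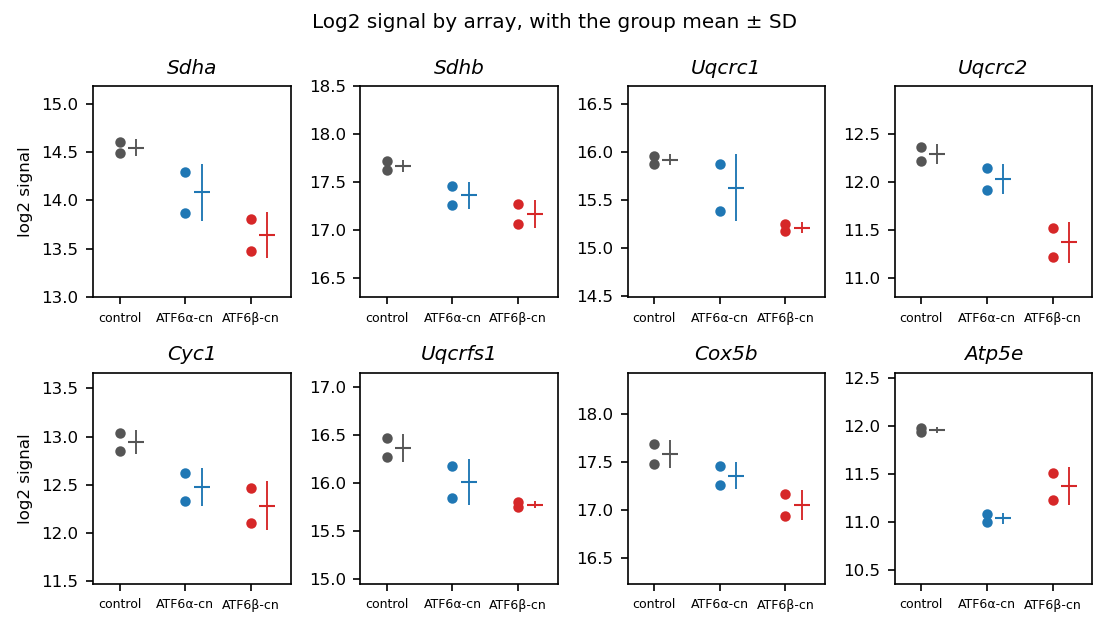
Log2 signal (y axis) of 8 subunit genes by group, with 1 dot per array, a horizontal mark at the group mean and a vertical line for ± SD (n = 2), each panel with its own axis that does not start at 0. In all panels except that of Atp5e the ATF6β-cn mean is the lowest, and for Atp5e the ATF6α-cn mean is the lowest, at 11.04 ± 0.06 against 11.96 ± 0.03 in control. The 8 were picked by hand: the 6 members called in ATF6β-cn by the fit with a variance trend, with Cyc1 and Atp5e. They do not stand for all 48 members, of which 6 lay above control on both ATF6β-cn arrays (21.1% of all clusters) and 33 below (23.3%).

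Complex IV was mixed, with a median log2 fold change of −0.12 in ATF6α-cn and −0.16 in ATF6β-cn over 18 genes. Of these 12 and 14 had a value below 0 (53.3% and 51.9% of all clusters). Arrays lay below both control arrays for 8 genes in ATF6α-cn and 7 in ATF6β-cn, and above for 3 and 4. Over all clusters these shares were 21.6% and 23.3% below, and 17.9% and 21.1% above. The ATF6α-cn median was −0.05 without ATF6α-cn replicate 2 and −0.18 without control replicate 1, and without bright and dim members the medians were −0.021 and −0.087. Cox5b, which binds zinc on the matrix side, had log2 signals of 17.48 and 17.69 in control, 17.46 and 17.26 in ATF6α-cn and 17.17 and 16.94 in ATF6β-cn. The groups did not overlap, and the log2 fold change in ATF6α-cn was −0.23 and in ATF6β-cn −0.53 (standard error 0.22, limma adjusted p = 0.335). Cox5a had signals of 16.80 and 16.91 in control, 16.68 and 16.76 in ATF6α-cn and 16.47 and 16.44 in ATF6β-cn, again without overlap, and its log2 fold changes were −0.14 and −0.40.

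Several complex IV subunits have a form for heart and skeletal muscle and a form for other tissues. Of the pair in position 6a, the muscle form Cox6a2 had log2 signals of 17.45 and 17.60 in control, 17.64 and 17.21 in ATF6α-cn and 17.53 and 17.14 in ATF6β-cn, and the other form Cox6a1 had 13.89 and 13.77, 13.86 and 14.12, and 14.00 and 13.35. The groups overlapped for both forms. The muscle form Cox7a1 had signals of 17.86 and 17.95 in control, 17.82 and 17.57 in ATF6α-cn and 17.56 and 17.53 in ATF6β-cn, with both lines below control (log2 fold changes −0.21 and −0.36). The ubiquitous form Cox7a2 had 14.82 and 14.80 in control, 14.37 and 14.55 in ATF6α-cn and 14.45 and 14.84 in ATF6β-cn, so that only ATF6α-cn was clear of control (log2 fold change −0.35). Cox7a2l, which helps to join complexes III and IV into supercomplexes, had 13.40 and 13.40 in control, 13.24 and 13.20 in ATF6α-cn and 13.42 and 13.33 in ATF6β-cn, with log2 fold changes of −0.18 and −0.02.

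The mouse heart form Cox8b had signals of 15.88 and 15.89 in control, 15.65 and 15.38 in ATF6α-cn and 15.71 and 15.67 in ATF6β-cn. It was lower on all arrays of both lines (log2 fold changes −0.37 and −0.19), whereas the ubiquitous form Cox8a, at 15.09 and 14.94 in control, 15.07 and 14.98 in ATF6α-cn and 15.11 and 15.18 in ATF6β-cn, was higher on both ATF6β-cn arrays (0.13) and overlapped with control in ATF6α-cn (0.01). Cox4i1, the usual form of the largest nuclear subunit, had 17.04 and 17.07 in control, 16.97 and 16.69 in ATF6α-cn and 16.71 and 16.85 in ATF6β-cn, with log2 fold changes of −0.22 and −0.27. Its lung form Cox4i2 had 7.08 and 6.81 in control, 7.14 and 7.15 in ATF6α-cn and 6.97 and 6.66 in ATF6β-cn. Neither difference of Cox4i2 from control was larger than its standard error (0.20 and −0.13, standard error 0.23). Cox6c was lower than control only on the ATF6β-cn arrays (−0.06 and −0.22), and Cox7b overlapped with control in each line (−0.15 in each). Cox6b1 had 16.35 and 16.28 in control, 16.46 and 16.34 in ATF6α-cn and 16.38 and 16.41 in ATF6β-cn, and its log2 fold change was 0.08 in each line.

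The forms known from testis were dim. Cox6b2 had a mean log2 signal of 4.29, below background, with 4.91 and 4.68 in control, 4.33 and 3.94 in ATF6α-cn and 3.58 and 4.30 in ATF6β-cn, and its log2 fold changes were −0.66 and −0.85 within that range. Cox8c had 4.81 and 5.13 in control, 5.57 and 5.76 in ATF6α-cn and 5.45 and 5.42 in ATF6β-cn. Its arrays were higher in both lines, by 0.70 in ATF6α-cn (standard error 0.22, limma adjusted p = 0.434) and 0.47 in ATF6β-cn (limma adjusted p = 0.405), from control values on both sides of the background level. Cox7b2 lay between 5.40 and 6.06 on all arrays, and the groups overlapped.

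Complex V had differences in the same direction, with a median log2 fold change of −0.09 in ATF6α-cn and −0.21 in ATF6β-cn over 17 genes. Arrays lay below both control arrays for 6 genes in ATF6α-cn (21.6% of all clusters) and for 15 in ATF6β-cn (23.3%). The ATF6α-cn median depended on the bright members, at −0.34 without them, and was −0.16 without ATF6α-cn replicate 1 and −0.042 without replicate 2. The genes of the catalytic head lay within 1 log2 unit of the highest signal on any array, where a difference can be compressed. Atp5a1, its alpha subunit, had log2 signals of 19.60 and 19.77 in control, 19.64 and 19.48 in ATF6α-cn and 19.57 and 19.60 in ATF6β-cn. Atp5b, the beta subunit that holds the catalytic sites, had 19.58 and 19.64, 19.61 and 19.46, and 19.50 and 19.53. In ATF6β-cn both were just below control, with log2 fold changes of −0.10 and −0.09, and the 95% intervals ran from −0.58 to 0.38 and from −0.56 to 0.38.

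The small subunit of the central stalk stood apart. Atp5e, the epsilon subunit, had log2 signals of 11.98 and 11.94 in control, 11.08 and 11.00 in ATF6α-cn and 11.52 and 11.23 in ATF6β-cn. Neither line overlapped with control, and ATF6α-cn was the lower of them. Its log2 fold change was −0.92 in ATF6α-cn (standard error 0.22, 95% interval −1.41 to −0.43, limma adjusted p = 0.289), a fold of 0.529, and −0.58 in ATF6β-cn (limma adjusted p = 0.278). Leaving out any 1 array and each other setting tried kept the ATF6α-cn value between −0.96 and −0.88. The other stalk subunits Atp5c1 (gamma) and Atp5d (delta) had log2 fold changes of −0.03 and −0.07 in ATF6α-cn and −0.22 and −0.15 in ATF6β-cn. In the membrane part and the outer stalk, Atp5l (subunit g) was lower on all arrays of both lines (−0.55 and −0.45), Atp5f1 (subunit b) only in ATF6β-cn (−0.06 and −0.37), and Atp5j (coupling factor 6), Atp5j2 (subunit f) and Atp5h (subunit d) in both by less, from −0.09 to −0.33. Atp5o, which ties the outer stalk to the head, and Atp5k (subunit e) overlapped with control in ATF6α-cn (−0.10 and −0.14) and were lower on both ATF6β-cn arrays (−0.15 and −0.21).

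The Atp5g genes encode the same mature subunit c of the rotor ring, and they differed. Atp5g1 had log2 signals of 18.29 and 18.27 in control, 18.35 and 18.34 in ATF6α-cn and 17.91 and 18.04 in ATF6β-cn, just above control in ATF6α-cn (0.06) and below it in ATF6β-cn (−0.31). The difference between the lines was −0.37 (standard error 0.21, limma adjusted p = 0.631). Atp5g2 had 16.97 and 16.91 in control, 17.02 and 16.91 in ATF6α-cn and 16.95 and 17.10 in ATF6β-cn, with overlap throughout (log2 fold changes 0.02 and 0.08). Atp5g3 had 17.02 and 17.21 in control, 17.11 and 16.96 in ATF6α-cn and 16.84 and 16.88 in ATF6β-cn, below control only in ATF6β-cn (−0.26). Among the genes that only share the symbol, Atp5s had 9.71 and 9.82 in control, 9.25 and 8.88 in ATF6α-cn and 9.69 and 9.41 in ATF6β-cn, and its log2 fold changes were −0.70 (limma adjusted p = 0.453) and −0.21. Atp5sl had 9.35 and 9.35 in control, 8.88 and 9.85 in ATF6α-cn and 10.07 and 9.88 in ATF6β-cn, so that its ATF6α-cn arrays lay on both sides of control and its ATF6β-cn arrays above (0.63, standard error 0.31, limma adjusted p = 0.429).

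Set directly against each other, the lines differed by a smaller median in the members than ATF6β-cn did from control, and complex II had the lowest median. The median log2 difference, ATF6β-cn minus ATF6α-cn, was −0.09 over the 48 members and 0.00 over all clusters, and 33 of the 48 were below 0, as were 49.6% of all clusters. By complex it was −0.34 in complex II, −0.10 in complex III, −0.07 in complex IV and −0.05 in complex V. Both ATF6β-cn arrays lay below both ATF6α-cn arrays for 18 members (19.4% of all clusters) and above for 8 (20.3%). Of the 48, 0 were called by limma, against 0.27% of all clusters (0.0495% lower and 0.221% higher), and the variance trend called 0 lower as well (0.342%). Of the 48, 2 had an unadjusted p under 0.05, Sdhd and Uqcrc2, both lower in ATF6β-cn (4.37% of all clusters), and 0 were higher at that p (5.3%). The 95% interval lay within a 2-fold difference for 44 members (73.4% of all clusters). For complexes IV and V the median turned sign, to 0.0067 and 0.22, when members near the top of the range were left out. The complex V members then left include Atp5s (0.48) and Atp5sl (0.61), which are not ATP synthase subunits. The others left were Atp5e (0.34), Atp5l (0.10), Atp5k (−0.06) and Atp5d (−0.08).

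Many of these genes were among the brightest on the array, and a signal close to the array ceiling can be compressed. Near the ceiling here means at or above a percentile and not at a limit. The control means of Sdhb and Uqcrfs1, for example, lay 2.26 and 3.56 log2 units below the highest signal. Of the 48, 24 had a mean log2 signal at or above 16.01, the 99th percentile of all clusters, and 5 of them, Atp5a1, Atp5b, Cox6c, Cox7c and Uqcrb, lay within 1 log2 unit of the highest signal on any array, 19.93. Cox7c, the member with the highest mean, had 19.91 and 19.88 in control, 19.9315 and 19.9255 in ATF6α-cn and 19.9315 on both ATF6β-cn arrays. The highest value on any array was 19.9315. Whether that value is a limit of the software is not stated in the sources used here. The median log2 fold change in ATF6α-cn was −0.10 and in ATF6β-cn −0.22 for the 24 bright members. For the 23 between background and this limit it was −0.26 and −0.21. All 223 clusters near the ceiling had medians of −0.05 and −0.04. In ATF6α-cn the median of all members moved from −0.14 to −0.27 without the bright ones, and whether compression took part in the smaller values of bright genes was not tested.

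**Figure D3:**
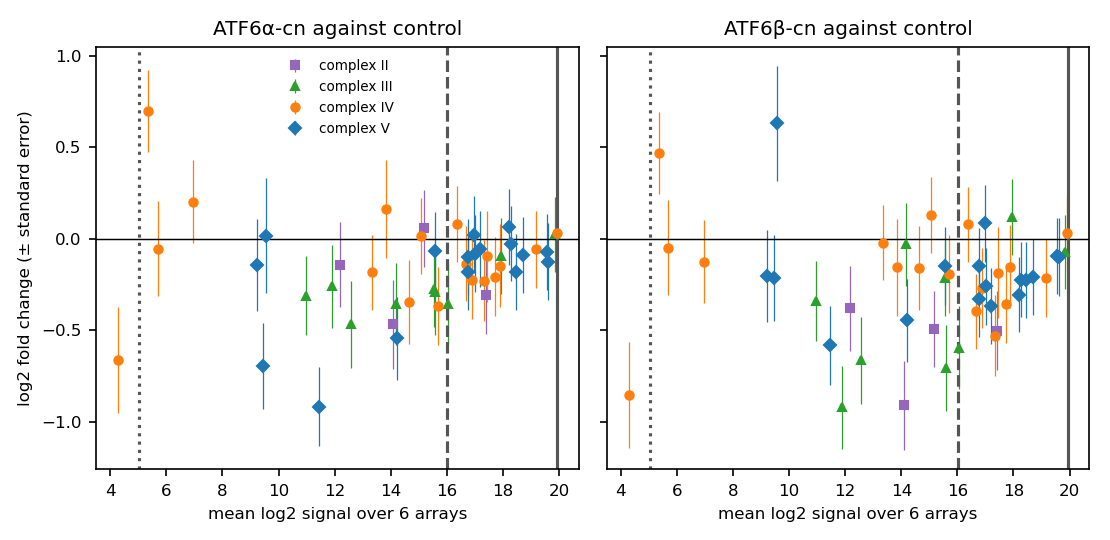
Log2 fold change against control (y axis, ± standard error) of the 48 members plotted on their mean log2 signal over 6 arrays (x axis), with ATF6α-cn on the left and ATF6β-cn on the right and 1 marker shape per complex. The dotted line is the background level of 5.03, the dashed line the 99th percentile of 16.01 and the solid line the highest signal of 19.93, and 24 of the members lie right of the dashed line, mostly between 0 and −0.5.

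The factors that assemble these complexes mostly had lower signals in ATF6β-cn than in control. The fold change was below 0 for 4 of 4 of complex II, 5 of 6 of complex III, 17 of 22 of complex IV and 3 of 4 of complex V. Of all clusters 51.9% were below 0. Of the 4 assembly factors of complex II, Sdhaf1 to Sdhaf4, all 4 had arrays below control in ATF6β-cn (23.3% of all clusters), with a median log2 fold change of −0.58, and 0 did in ATF6α-cn (21.6%), where the median was −0.12. Sdhaf2, which attaches the flavin to Sdha, had log2 signals of 11.36 and 11.53 in control, 11.32 and 11.40 in ATF6α-cn and 10.72 and 11.00 in ATF6β-cn (log2 fold changes −0.08 and −0.59). Sdhaf4 lay between 3.95 and 5.20, around background. The medians in ATF6α-cn and ATF6β-cn were −0.28 and −0.40 for 6 factors of complex III, −0.22 and −0.42 for 22 of complex IV, and −0.30 and −0.56 for 4 of complex V. Of these 36 factors 1 was called lower in ATF6β-cn, as were 0.306% of all clusters. Lrpprc, which stabilizes mitochondrial mRNAs and whose human gene is mutated in a cytochrome c oxidase deficiency, had signals of at least 11.78 on both control arrays, 11.02 and 11.10 in ATF6α-cn and 10.80 and 10.43 in ATF6β-cn, where it fell with a log2 fold change of −1.27 (limma adjusted p = 0.043). In ATF6α-cn its value was −0.83 (limma adjusted p = 0.38).

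Genes outside these complexes gave a scale for the values. The 37 genes listed for complex I (Ndufa4 among them, now assigned to complex IV) had a median log2 fold change of −0.22 in ATF6α-cn and −0.43 in ATF6β-cn, and 32 and 34 of them were below 0. The 14 citric acid cycle genes had −0.24 and −0.44, with 14 of 14 below 0 in each line. Of these 14, 0 were called by limma (0.0946% and 1.1% of all clusters). At an unadjusted p under 0.05, 2 and 7 were lower and 0 higher in each line. The 75 mitochondrial ribosomal proteins had −0.34 and −0.42. Of them 13 and 31 were lower at an unadjusted p under 0.05, and 0 higher in each line. Among them 1, Mrps35, was called lower in ATF6β-cn (−1.23, limma adjusted p = 0.0391), as were 0.306% of all clusters. The 85 cytosolic ribosomal proteins, whose genes are also bright and broadly used, had −0.15 in ATF6α-cn and 0.08 in ATF6β-cn. These lists share the arrays with the members, and no test was made between lists.

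**Figure D4:**
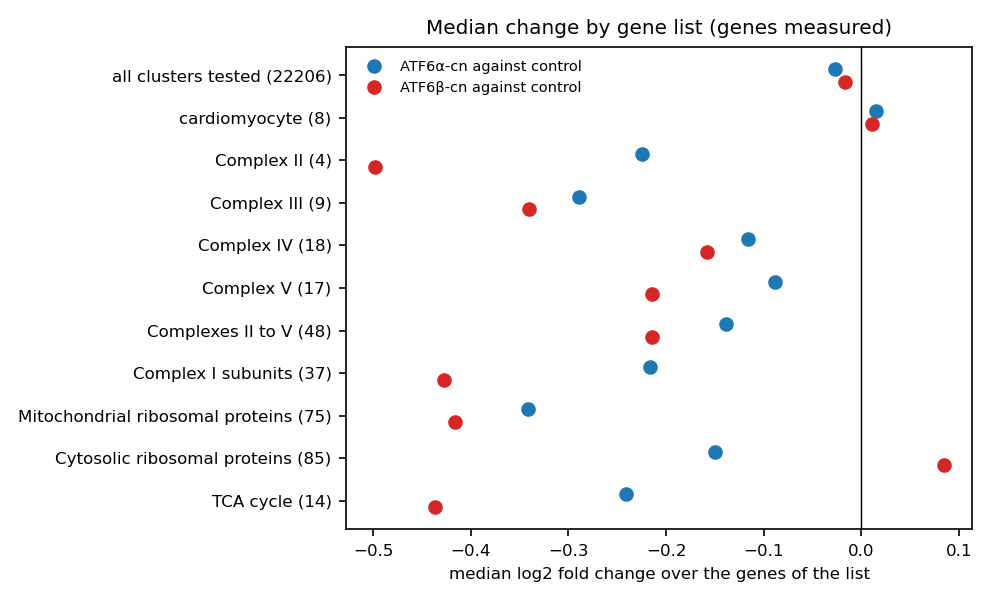
Median log2 fold change against control (x axis) over the genes of each list, with the number of genes measured in brackets and 1 point per line. Complexes II to V together lie at −0.14 and −0.21, nearer to all clusters than the complex I list at −0.22 and −0.43. The cardiomyocyte markers, most of them near the array ceiling, lie at 0.01 in both lines.

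Of 16 regulators of mitochondrial gene expression, 0 were called by limma in any comparison. Of all clusters 0.0946% were called in ATF6α-cn, 1.1% in ATF6β-cn and 0.27% between the lines. At an unadjusted p under 0.05 there were 2 regulators lower in ATF6α-cn (4.48% of all clusters). In ATF6β-cn there were 3 lower (7.14%) and 2 higher (6.72%), and 2 were higher in ATF6β-cn than in ATF6α-cn (5.3%). The medians of the 16 were −0.19 in ATF6α-cn and −0.22 in ATF6β-cn, with 11 and 10 below 0 (53.3% and 51.9% of all clusters). The coactivator Ppargc1a, which drives mitochondrial biogenesis, had log2 signals of 14.68 and 14.79 in control, 14.78 and 16.21 in ATF6α-cn and 14.62 and 14.92 in ATF6β-cn, with 1 high array in ATF6α-cn. Perm1, a muscle regulator of oxidative genes, had 15.22 and 15.25 in control, 15.39 and 15.65 in ATF6α-cn and 16.26 and 16.29 in ATF6β-cn. Its arrays were higher in both lines, with log2 fold changes of 0.28 and 1.04 (limma adjusted p = 0.72 and 0.07). Tfam, which packages and transcribes mitochondrial DNA, had 8.69 and 9.16 in control, 8.24 and 8.95 in ATF6α-cn and 8.27 and 7.97 in ATF6β-cn (log2 fold changes −0.33 and −0.81, limma adjusted p = 0.77 and 0.27). These 3 were chosen after their values were seen.

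Markers of other cell types differed between the groups in part. The 8 cardiomyocyte markers had a median log2 fold change of 0.01 in each line, and their summed linear signal was 4467160 to 4508450 in control, 4495410 to 4495560 in ATF6α-cn and 4316940 to 4377680 in ATF6β-cn. Most of these markers are themselves near the ceiling. Myl3 and Actc1 had −0.17 and 0.03 in ATF6α-cn and −0.42 and −0.31 in ATF6β-cn, where the others lay from −0.07 (Ryr2) to 0.03 (Pln). The 8 fibroblast markers, all above background, had medians of 0.07 in ATF6α-cn and 0.63 in ATF6β-cn, with 0 called by limma. At an unadjusted p under 0.05, 1 and 3 were higher (4.44% and 6.72% of all clusters). Their sums were 230466 to 230521 in control, 222584 to 244256 in ATF6α-cn and 327503 to 409429 in ATF6β-cn. Dcn carries most of this sum, with log2 fold changes of 0.01 and 0.67. In ATF6β-cn 6 of the 8 had both arrays above control (21.1% of all clusters), while Postn had −0.27. The 6 endothelial markers had medians of 0.36 and −0.15, with sums of 45647 to 47541 in control, 41105 to 65926 in ATF6α-cn and 41297 to 41931 in ATF6β-cn. The 4 atrial markers had medians of 0.36 and 0.32, with 3 and 4 above 0 and sums of 46701 to 47048 in control, 121283 to 367717 in ATF6α-cn and 123572 to 156430 in ATF6β-cn. Nppa, the natriuretic peptide gene that is also known to rise in stressed ventricle, carries most of these sums. Its log2 fold changes were 2.17 and 1.57 (limma adjusted p = 0.215 and 0.160). The 4 smooth muscle markers had medians of 0.01 and −0.01, with Acta2 at 0.64 and 1.497 (limma adjusted p = 0.726 and 0.220). Their sums, most of which Acta2 carries, were 12137 to 16305 in control, 15567 to 29188 in ATF6α-cn and 22658 to 62861 in ATF6β-cn. Of the 5 skeletal muscle markers, Ckm, the muscle creatine kinase also made in heart, had −0.16 and −1.02 (limma adjusted p = 0.853 and 0.0708), the list medians were 0.11 and 0.05, and the sums were 34560 to 35197 in control, 29271 to 48109 in ATF6α-cn and 22979 to 23530 in ATF6β-cn. The 6 macrophage and leukocyte markers had medians of −0.09 and 0.20, with sums of 1558 to 1635 in control, 1418 to 1522 in ATF6α-cn and 1434 to 2065 in ATF6β-cn. In ATF6β-cn the fibroblast median, Nppa and Acta2 were higher and Ckm was lower, beside the lower subunit signal. Acta2 and Ckm did not stand for their lists. In ATF6β-cn the other smooth muscle markers Myh11, Cnn1 and Tagln had −0.36, −0.07 and 0.05. Of the other skeletal muscle markers, Acta1 had 0.26, and Myh1, Myh2 and Myh4, which lay below background, had 0.05, 0.36 and −0.02. The Nppa value was larger in ATF6α-cn than in ATF6β-cn. The part of these markers in the result was not tested.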

How the data were processed

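RNA from the ventricles of 6 mice was labelled with a 3′ in vitro transcription kit and measured on Clariom S mouse arrays, 2 per group. The authors deposited 1 log2 signal per cluster and array, which they had normalized. Affymetrix Expression Console appears in the submitters' processing notes. The sources used here give neither its version nor how background was corrected or probes were summarised. The deposited fold changes and p-values of the authors' own comparisons were not used, and only gene symbols were taken from that table.

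Of 28846 entries, 6640 controls were left out and 22206 clusters were tested, of which 836 list several symbols and 3 list none, and no member cluster lists several. The comparisons were fitted by limma 3.58.1 (R 4.3.3), with all 6 arrays in 1 fit, 1 mean per group, and p adjusted by the Benjamini-Hochberg method over all clusters (3 residual and 5.63 prior degrees of freedom). The code was tested on simulated data. The number of arrays limits the precision. Replicate numbers did not pair the samples: deviations of same-numbered arrays correlated at −0.02 to 0.02.

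Values by array were printed for members called, for the 2 per complex and comparison with the largest difference among those with non-overlapping arrays, for defining subunits, for the tissue isoform sets, and for the members with the highest and lowest mean. Other members are given by log2 fold change, by range or by counts. Genes outside the members are given mostly by counts, and some of them by log2 fold change or by array. The members and gene lists were chosen with earlier results of these data known. Alternatives were quantile normalization, centring, removal of dim clusters, a variance trend with a robust fit, weighted arrays, a replicate block, 4 arrays alone, Student's t-test, leaving out each array, the dimmer cluster of a gene, and members left out for brightness or dimness. Leaving out Atp5s and Atp5sl, and bright and dim members together, was added after seeing the data. Promoter windows came from RefSeq on GRCm38.p6, matched by symbol or a unique synonym.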

Additional observations from a re-analysis of the deposited data

How the results depend on the processing

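For the members, 0 were called in any comparison under any setting, except 6 in ATF6β-cn with a variance trend and a robust fit. Their median log2 fold change stayed below 0 throughout. In ATF6α-cn it ran from −0.20 to −0.063 when 1 array was left out, and was −0.27 without bright members and −0.26 without bright and dim ones. In ATF6β-cn it was −0.14 after quantile normalization and −0.25 to −0.21 with 1 array left out. Between the lines it was −0.020 after quantile normalization and −0.16 to −0.027 with 1 array left out. The medians between the lines turned sign in complexes IV and V. For complex IV they were 0.0067 without bright members, 0.061 without bright and dim ones, and −0.17 to 0.0070 with 1 array left out. For complex V they were 0.024 after quantile normalization, 0.22 without bright members as well as without bright and dim ones, and −0.094 to 0.023 with 1 array left out. The complex V members that are not bright include Atp5s and Atp5sl, which are not ATP synthase subunits. The cause of these turns of sign was not tested. Of 31 members with printed values, the sign of the difference turned in some setting for 8 in ATF6α-cn, 7 in ATF6β-cn and 10 between the lines.

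The number of clusters called in ATF6α-cn was 21, and was 61 with the variance trend, 13 with 4 arrays, 0 by Student's t-test and 9 to 13 with 1 array left out. In ATF6β-cn it was 244, and was 686 with the variance trend, 389 without dim clusters, 0 by Student's t-test and 41 to 190 with 1 array left out. Between the lines it was 60, and was 257 with the variance trend, 93 without dim clusters, 38 after quantile normalization, 36 with 4 arrays, 0 by Student's t-test and 9 to 36 with 1 array left out. With the replicate block it was 27 between the lines, 16 in ATF6α-cn and 189 in ATF6β-cn, and 0 members were called in each. Leaving out an array leaves its group with a lone array, taken to vary like the others. Signals near the ceiling or below background limit what these arrays can show.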
